A study of Homo sapiens with 4 samples.

Results

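The replication-dependent histone genes were examined in control H9 cells and H9 cells labelled as SLC35F2 knock-out (KO). They were taken as every protein-coding gene whose GENCODE 29 symbol starts with HIST1H, HIST2H, HIST3H or HIST4H, which gave 71 of the 60483 gene identifiers in the files. They comprised 6 H1, 17 H2A, 18 H2B, 15 H3 and 15 H4 genes. H9 (WA09) is a long-established line of human embryonic stem cells. The 4 RNA-seq libraries were 2 from control H9 cells and 2 from KO cells, and SLC35F2 encodes a membrane transporter of the solute carrier family. No other treatment, allele or time is labelled, how the KO was made is not stated, and the labels do not tell whether replicate libraries are separate cultures, separate clones or repeats of the same cells, so the p-values below measure only the spread between these libraries.

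Histones package DNA: H2A, H2B, H3 and H4 form the core around which DNA is wrapped, and H1 binds the linker DNA between cores. The replication-dependent genes lie in clusters and are transcribed mostly in S phase, when new chromatin is made. Most of their RNA is not polyadenylated but ends just after a short stem-loop, which the stem-loop binding protein SLBP binds and at which the U7 small nuclear ribonucleoprotein directs cleavage. An mRNA library kit, as was used here, selects poly(A) RNA and so recovers mainly the polyadenylated forms of these transcripts. The values below therefore describe the histone RNA that entered such libraries and not the total histone RNA of the cells.

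The stem-loop itself was read from GENCODE 29 transcripts (GRCh38), because it is the 3′ end signal for which these RNAs are known. The 16-base motif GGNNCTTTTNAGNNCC, with its 6 stem positions paired (G with T allowed), was searched on the transcript strand. It was found in 31 of the 71 genes and in 42 of 58676 genes with a transcript (0.0716%), against 5 genes on the opposite strand. Of the 40 genes without a match, many cannot hold it, since 33 of the 71 gene models are coding sequence only. The following 26-base stretches are 1 gene for each form of the motif and the genes on which later results turn, with the stem-loop in capitals, to which the coordinates refer:
HIST1H2AC (H2A, chr6:26124669-26124684, + strand): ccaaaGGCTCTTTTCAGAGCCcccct
HIST1H2BD (H2B, chr6:26158587-26158602, + strand): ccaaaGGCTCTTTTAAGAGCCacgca
HIST1H2AG (H2A, chr6:27133515-27133530, + strand): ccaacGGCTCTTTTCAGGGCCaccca
HIST4H4 (H4, chr12:14770724-14770739, - strand): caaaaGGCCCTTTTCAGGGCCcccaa
HIST1H4I (H4, chr6:27139654-27139669, + strand): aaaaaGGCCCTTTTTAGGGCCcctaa

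The stem differed between H4 and the other classes. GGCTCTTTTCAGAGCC was found in 6 H2A, 8 H2B and 3 H3 genes, and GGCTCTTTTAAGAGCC in 3 H2B and 2 H3 genes. The H4 genes had a different stem: 5 held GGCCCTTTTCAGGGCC and 3 held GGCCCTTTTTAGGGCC. The remaining match, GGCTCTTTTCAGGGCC, was in HIST1H2AG. Among the 11 other genes with a match was H2AFX, a histone gene outside the 71 whose RNA is known in both stem-loop and polyadenylated forms. No H1 gene model held the motif, but those of HIST1H1A, HIST1H1B, HIST1H1C and HIST1H1D are coding sequence only and cannot hold it.

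The depth of the libraries was 37978705 and 32423108 assigned reads for control 1 and control 2, and 27824693 and 36943597 for KO 1 and KO 2. SLC35F2 had 1550 and 964 reads in the controls and 332 and 330 in the KO libraries, or 41.1 and 27.1 against 12.1 and 9.65 CPM (read counts scaled to library size with edgeR's TMM factors, here and below). Its RNA was lower in both KO libraries but not absent, with a log2 fold change of -1.65 ± 0.35 (SE) and an adjusted p of 0.58 in edgeR's quasi-likelihood test with Benjamini-Hochberg adjustment. The unadjusted p was 0.00124. SLC35F2 passed the threshold with DESeq2 (adjusted p 0.00954), with the replicate block (adjusted p 0.00736), without KO 1 (adjusted p 0.00104) and without KO 2 (adjusted p 0.0243, the last 3 with edgeR), at log2 fold changes of -1.81 to -1.497. In the test with all 4 libraries 5 of 19027 genes (0.0263%) were called at an adjusted p of 0.05. The stem cell markers POU5F1, SOX2, NANOG, LIN28A and DNMT3B were present in every library, summing to between 3158 and 4462 CPM. NANOG stood at 61.2 and 64.7 CPM in controls and 46.2 and 19.1 in KO, with a log2 fold change of -0.95 (95% interval -1.87 to -0.03, unadjusted p 0.0438 and adjusted p 0.997 by edgeR). DNMT3B stood at 1743 and 1302 CPM in controls and 1550 and 662 in KO. Both were lowest in KO 2, which was also the lowest library for the histone genes. In bulk libraries fewer cells of a type and less RNA per cell cannot be told apart.

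Histone reads were scarce in every library, and they differed more within a group than between the groups. The 71 genes took 4048 and 1682 reads in controls 1 and 2, and 1953 and 1222 reads in KO 1 and 2. These were 0.0107% of assigned reads (95% exact binomial interval 0.0103 to 0.0110%), 0.00519% (0.00494 to 0.00544%), 0.00702% (0.00671 to 0.00734%) and 0.00331% (0.00312 to 0.00350%). Such intervals cover counting error only, since the reads carry no molecular identifiers. As summed levels the libraries stood at 107, 47.3, 71.0 and 35.7 CPM. Control 1 was the highest and KO 2 the lowest, and KO 1 lay between the controls, so the groups overlapped. The mean was 77.3 ± 42.4 CPM (SD, n = 2) in controls and 53.4 ± 25.0 CPM (SD, n = 2) in KO. The log2 ratio of the means was -0.53, with no test. Without control 1 that log2 ratio was 0.17, so its direction rested on that library. With 2 libraries against 2, an exact two-sided permutation test of a single value cannot go below p = 0.33.

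Of the 71 genes, 32 had at least 10 reads in 2 or more libraries and are called genes with enough reads. By class these were 3 of 6 H1, 9 of 17 H2A, 11 of 18 H2B, 4 of 15 H3 and 5 of 15 H4 genes. At 10 reads or more, 37 and 29 genes were detected in controls 1 and 2, and 29 and 22 in KO 1 and 2. After the reads of each library were thinned to the size of the smallest, these numbers were 34, 22, 29 and 18. No read fell in any library on 9 genes: HIST1H1T, HIST1H2AA and HIST1H2BA, known as testis forms of H1, H2A and H2B, and HIST1H2AK, HIST1H4G, HIST2H2AA3, HIST2H3A, HIST2H3C and HIST2H4B. By counting error alone, a count of 0 allows up to 3 reads. This is 0.0795 and 0.0844 CPM in controls 1 and 2, and 0.109 and 0.0877 CPM in KO 1 and 2. It sets no limit for HIST2H2AA3, HIST2H3A, HIST2H3C and HIST2H4B, whose sequence is nearly all shared with another gene. Alignments that were not unique were assigned to no gene. HIST3H3, another testis form, had 1 read, in KO 2.

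**Figure D1:**
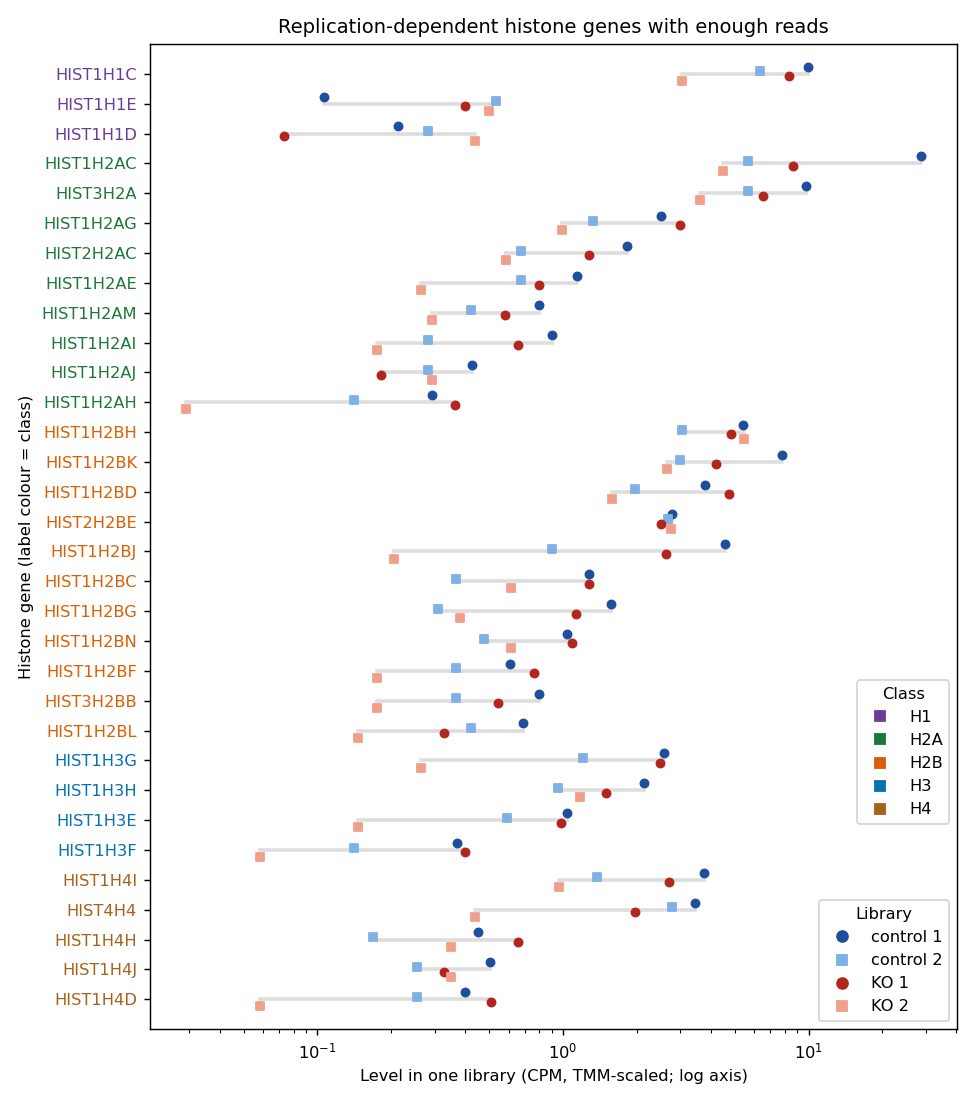
Level of each of the 32 genes with enough reads (rows, coloured by class and ordered by mean level within a class) in each of the 4 libraries, in CPM on a log axis. Points are single libraries and grey lines span the lowest to the highest. Control 1 is the highest point for 20 genes and KO 2 the lowest for 21, and only HIST4H4 and HIST1H2BL have both KO points below both control points.

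In each group, most of the 32 genes with enough reads were higher in replicate 1 than in replicate 2. Control 1 was the highest of the 4 libraries for 20 of the 32 genes with enough reads, where 16.4% of all genes tested had it highest. KO 2 was the lowest for 21 of the 32, against 32.3% of all genes tested. Control 1 was above control 2 for 30 of the 32 (49.0% of all genes), and KO 1 above KO 2 for 26 of the 32 (49.9%). Relative to the mean of the controls, with a pseudocount of 0.1 CPM, the median gene stood at log2 values of 0.36 and -0.48 in controls 1 and 2, and 0.05 and -1.08 in KO 1 and 2. These counts and medians describe genes that had to reach 10 reads in some libraries, and they are no test of the groups.

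No histone gene passed the test between KO and control. Of the 71 genes, 34 could be tested, which were the 32 above with HIST1H2BO and HIST2H2BF. None of the 34 was called at an adjusted p of 0.05 (0.0263% of all genes were), and none had an unadjusted p under 0.05 (4.06% of all genes had) in edgeR's quasi-likelihood test. DESeq2, limma-voom and edgeR's legacy fit also called 0, with 1, 1 and 0 genes at an unadjusted p under 0.05. The lowest unadjusted p was 0.065, for HIST4H4, and the lowest adjusted p was 0.997. The median log2 fold change was -0.42 over the 34 genes and -0.43 over the 32, beside 0.029 over all genes tested. The fold change lay below 0 for 26 of the 34, where 47.2% of all genes lay below 0. The direction turned on single libraries, since the median over the 32 was 0.25 without control 1 and 0.05 without KO 2.

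The precision was low. All 34 of the 95% intervals of the log2 fold change held 0, 33 held -1 (a halving) and 27 held 1 (a doubling), and their median width was 3.36. The interval that did not hold -1 was that of HIST1H2BH. Both KO libraries were below both controls for 2 of the 32 genes with enough reads, or 6.25%, where this held for 16.3% of all genes tested. Both KO libraries were above both controls for 0 of the 32, against 15.8% of all genes. For the other 30 the groups overlapped.

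**Figure D2:**
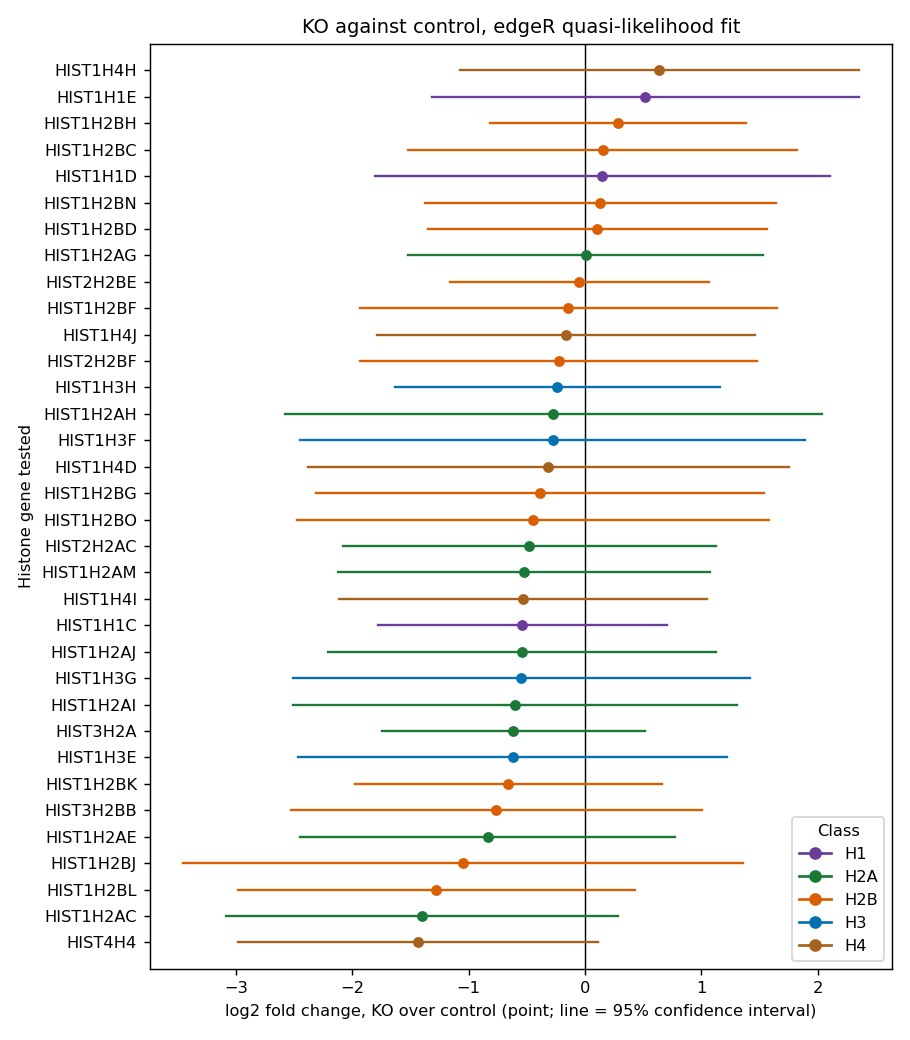
Log2 fold change of KO over control for the 34 histone genes tested with edgeR (points), with 95% confidence intervals (lines), ordered by fold change and coloured by class. All 34 intervals cross 0, from HIST4H4 at -1.44 to HIST1H4H at 0.64.

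The H1 genes were led by HIST1H1C, a linker histone expressed in most cell types. It had 377 and 226 reads in controls 1 and 2, and 230 and 104 in KO 1 and 2, or 9.99, 6.36, 8.36 and 3.04 CPM. KO 1 lay between the controls and KO 2 below both. Its log2 fold change was -0.54 ± 0.55 (SE), with a 95% interval of -1.78 to 0.70. HIST1H1E, another somatic linker histone, had 4, 19, 11 and 17 reads in the same order of libraries, and HIST1H1D had 8, 10, 2 and 15. Both differed from most of the histone genes, with control 1 below control 2 and KO 1 below KO 2 in CPM. Control 1 was the lowest library for HIST1H1E and KO 2 the highest for HIST1H1D. The log2 fold change of HIST1H1E was 0.52 ± 0.81 (SE). HIST1H1A had 20 reads in KO 2 and 2 to 4 elsewhere. The class summed to 10.6 and 7.60 CPM in controls and 9.09 and 4.71 in KO, a log2 ratio of -0.40. Without HIST1H1C this ratio was 0.37, so the sign of the class was that of HIST1H1C. Without KO 2 it was -0.0013.

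The H2A genes held the widest difference between single libraries in CPM. HIST1H2AC (ENSG00000180573.9, chr6:26124145-26139116, + strand) had 1081 and 202 reads in controls 1 and 2, and 237 and 154 in KO 1 and 2. In CPM these were 28.6, 5.69, 8.62 and 4.50. Control 1 was far above the other 3 libraries, and KO 1 was above control 2. The log2 fold change was -1.40 ± 0.73 (SE), with an interval of -3.09 to 0.29 and an adjusted p of 0.997 (0.0914 unadjusted) by edgeR's quasi-likelihood test. Without control 1 the fold change was 0.21. This gene alone made up 26.7% of the histone reads of control 1, where the most abundant gene of the other libraries took 12.1 to 15.3%. With the most abundant gene of each library left out, the summed levels were 78.6, 41.0, 62.4 and 30.3 CPM, in the same order of libraries.

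HIST3H2A, the H2A gene of the small cluster on chromosome 1, had 369, 202, 180 and 124 reads, or 9.78, 5.69, 6.55 and 3.63 CPM in control 1, control 2, KO 1 and KO 2. The groups overlapped, since KO 1 exceeded control 2, and the log2 fold change was -0.62 ± 0.50 (SE), with an interval of -1.75 to 0.51. The H2A class summed to 47.1 and 15.6 CPM in controls and 22.7 and 10.9 in KO, a log2 ratio of -0.90. Without control 1 it was 0.10, and without HIST1H2AC it was -0.48. The share of H2A among the histone reads was 43.9% in control 1 (95% exact interval 42.4 to 45.5%), 33.0% in control 2 (30.8 to 35.3%), 31.95% in KO 1 (29.9 to 34.1%) and 30.4% in KO 2 (27.8 to 33.0%). Only the interval of control 1 stood apart from the other 3.

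Within the H2B class, HIST2H2BE was nearly level, with 2.78 and 2.67 CPM in controls and 2.51 and 2.75 in KO, from 105, 95, 69 and 94 reads. Its mean was 2.73 ± 0.0768 CPM (SD, n = 2) in controls and 2.63 ± 0.17 CPM (SD, n = 2) in KO. The log2 fold change was -0.05 ± 0.49 (SE), and its interval of -1.17 to 1.06 still allowed a halving or a doubling. HIST1H2BJ stood at the other end. It had 173, 32, 72 and 7 reads, or 4.58, 0.901, 2.62 and 0.205 CPM, so that the replicates within each group lay further apart than the group means.

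The most abundant H2B genes by CPM were HIST1H2BH and HIST1H2BK. HIST1H2BH had 204, 108, 133 and 187 reads, or 5.41, 3.04, 4.84 and 5.47 CPM, and KO 2 was as high as control 1. Its log2 fold change was 0.29 ± 0.48 (SE), with an interval of -0.81 to 1.39. HIST1H2BK had 293, 106, 116 and 91 reads, or 7.76, 2.98, 4.22 and 2.66 CPM, and a log2 fold change of -0.66 ± 0.58 (SE). HIST1H2BL, with 26, 15, 9 and 5 reads, was 1 of the 2 genes with both KO libraries below both controls. Its log2 fold change was -1.28 ± 0.75 (SE), with an interval of -2.98 to 0.43 and an unadjusted p of 0.124. The class summed to 31.96 and 14.6 CPM in controls and 25.2 and 15.3 in KO, a log2 ratio of -0.20, which was 0.48 without control 1 and 0.12 without KO 2. In KO 2 the share of H2B among histone reads was 42.8% (40.004 to 45.6%), above the 29.8% (28.4 to 31.2%) of control 1, the 30.7% (28.5 to 33.0%) of control 2 and the 35.5% (33.4 to 37.7%) of KO 1. Much of this lay in HIST1H2BH, which held 187 of the 523 H2B reads of KO 2. It held 204 of 1206 in control 1, 108 of 517 in control 2 and 133 of 693 in KO 1.

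The H3 class had the smallest share of genes with enough reads, 4 of 15. HIST1H3G had 97, 43, 68 and 9 reads, or 2.57, 1.21, 2.47 and 0.263 CPM. HIST1H3H had 81, 34, 41 and 40 reads, or 2.15, 0.957, 1.49 and 1.17 CPM. In both genes KO 1 lay between the controls. The log2 fold changes were -0.55 ± 0.86 and -0.24 ± 0.62 (SE). The class summed to 7.79 and 3.77 CPM in controls and 6.73 and 2.11 in KO, a log2 ratio of -0.39 that was 0.23 without control 1 and 0.22 without KO 2.

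The H4 genes held the lowest p. HIST4H4 (ENSG00000197837.3, chr12:14767999-14771131, - strand) is the only one of the 71 genes on chromosome 12. It had 130 and 99 reads in controls and 54 and 15 in KO, or 3.45 and 2.79 against 1.96 and 0.439 CPM. Both KO libraries were below both controls, and KO 1 and KO 2 were far apart. The means were 3.12 ± 0.466 CPM (SD, n = 2) in controls and 1.20 ± 1.08 CPM (SD, n = 2) in KO. The log2 fold change was -1.44 ± 0.68 (SE), with an interval of -2.98 to 0.11 and an adjusted p of 0.997 (0.065 unadjusted) by edgeR's quasi-likelihood test. Without KO 2 the fold change was -0.66, and without KO 1 it was -2.81. HIST1H4I, the most abundant H4 gene of the chromosome 6 clusters, had 141, 49, 74 and 33 reads, or 3.74, 1.38, 2.69 and 0.965 CPM, and its groups overlapped. HIST1H4H had 17, 6, 18 and 12 reads and the highest log2 fold change of the 34 genes, 0.64 ± 0.75 (SE). The class summed to 9.78 and 5.80 CPM in controls and 7.31 and 2.78 in KO, a log2 ratio of -0.63 that was -0.20 without control 1 and -0.091 without KO 2.

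**Figure D3:**
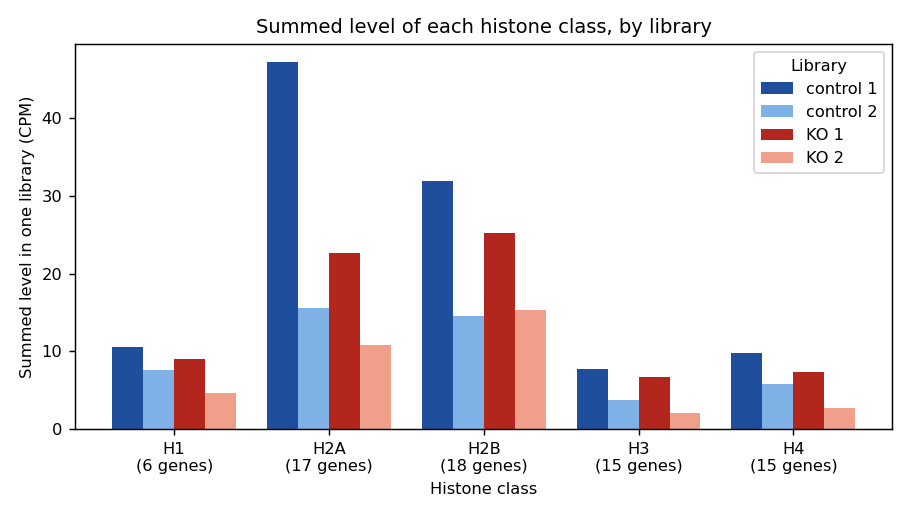
Summed level of each histone class in each library, in CPM, with the number of genes of the class under its name. Bars are single libraries, so they carry no error bar. In the 5 classes control 1 is the highest, and control 2 lies below KO 1, so that the groups overlap in each class.

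With KO 1 left out, edgeR's quasi-likelihood test called 4 of 42 histone genes lower in KO 2 than in the controls, where 5.31% of all genes tested were called, 1096 of 20642. They were HIST1H2BJ (log2 fold change -3.72, adjusted p 0.00322), HIST1H2AC (-1.92, adjusted p 0.00955), HIST4H4 (-2.81, adjusted p 0.0140) and HIST1H3G (-2.82, adjusted p 0.0382). In that fit KO 2 is a lone library assumed to vary as the controls do. Leaving out control 1, control 2 or KO 2 instead gave 0 histone genes called.

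Levels between genes were compared per kilobase (kb) of annotated exon. The identifier version in the deposited counts was the same as in the annotation used for these lengths for 58 histone genes. For the other histone genes the exon length used may differ from that of the model counted. The same limit holds for the gene models and pair ratios below. HIST1H2BK was the highest at 11.6 CPM per kb over the 4 libraries, with a range of 6.99 to 20.4, although 74.1% of its 50-base words also occur in other genes. HIST1H1C followed at 10.8 (4.74 to 15.6). HIST3H2A stood at 7.16 CPM per kb (4.05 to 10.9) and HIST1H2AC at 7.11 (2.70 to 17.2). The ranges of these 4 genes overlapped, but part of their order was the same in every library. HIST3H2A was below HIST1H2BK and HIST1H1C in each library, and HIST1H2AC was below HIST1H2BK. HIST1H2BK and HIST1H1C changed places between libraries, and so did HIST1H2AC with HIST1H1C and HIST3H2A. HIST1H2BD came next at 3.47 CPM per kb (1.81 to 5.47). Per kb of coding sequence HIST1H2AC was the highest at 30.4 CPM per kb, and 7 of the 10 highest genes stayed among the 10 highest.

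The annotated gene model moved with which genes were counted. A model was called extended if a transcript had more than 1 exon or ran more than 150 bases past the stem-loop, and short otherwise. Of 26 genes with extended models 18 had enough reads (69.2%), and of 45 with short models 14 had (31.1%). The extended models held 70.1% of all 8905 histone reads. The medians were 0.476 and 0.329 CPM per kb. By library the extended models took 72.6, 65.7, 69.0 and 69.5% of the histone reads in control 1, control 2, KO 1 and KO 2. The median exon length was 1772 bases for extended and 411 bases for short models, and the part of length in these counts was not tested. With the extended models left out, the log2 ratio of the summed level was -0.15 in place of -0.63 for H4, -0.64 in place of -0.20 for H2B and -0.54 in place of -0.90 for H2A.

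Sequence shared with other genes also moved with the counts. For each gene the share of its 50-base words that also occur in transcripts of another gene was counted, overlapping genes of the same locus included. It was 90% or more in 10 genes, of which 0 had enough reads, and these 10 held 0.966% of the histone reads. HIST2H2AA3 and HIST2H2AA4, a near-identical H2A pair, had 100% and 97.1% of their words shared and 0 and 1 read in all. HIST2H3A and HIST2H3C, an H3 pair, shared 100% and had no read. HIST2H4A and HIST2H4B, an H4 pair with 97.5% and 97.2% shared, had 13 and 0 reads. HIST1H4J and HIST1H4K, with 81.2% and 100% of their words shared, kept more reads, 49 and 21 in all, and HIST1H4J had enough reads. Between 6.35 and 6.88% of counted alignments were not unique in these libraries and were assigned to no gene, so the levels of these pairs are uncertain. A further 2.62 to 2.95% were ambiguous between overlapping genes and were also assigned to none. Among genes with at most 10% shared words, 18 of 20 with extended models and 7 of 30 with short models had enough reads. Over the genes with at most 10% shared words the log2 ratio of the summed level was -0.53.

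**Figure D4:**
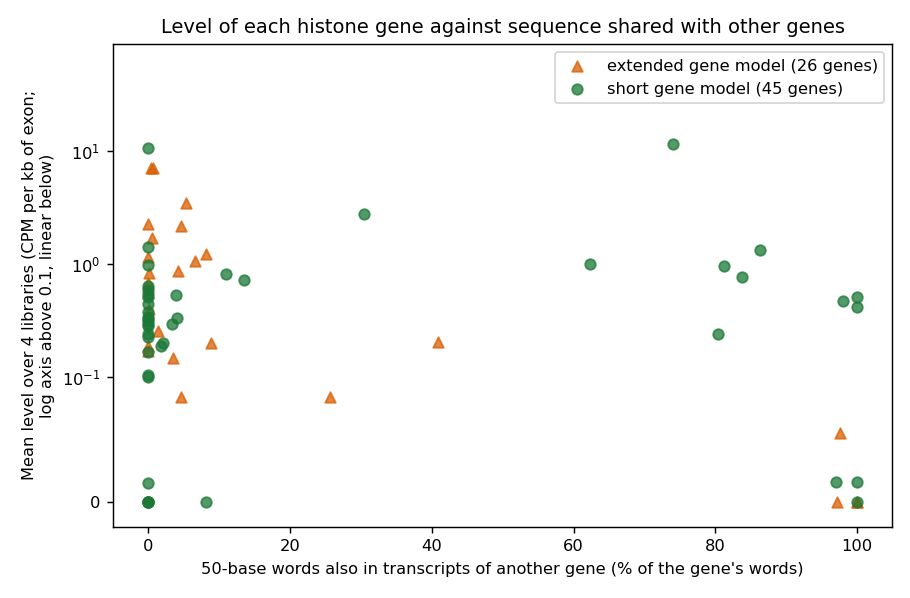
Mean level of each of the 71 histone genes over the 4 libraries, in CPM per kb of exon (log axis above 0.1, linear below), against the share of its 50-base words found in another gene's transcripts. Triangles are extended and circles short gene models. Of the 10 genes at 90% or more, 0 had enough reads.

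By position, 5 of the 6 loci showed the same order of libraries. The 34 genes of the upstream cluster on chromosome 6 (chr6:25726132-26285638) summed to 61.1 and 23.8 CPM in controls and 38.3 and 19.4 in KO. The 5 genes of the middle cluster (chr6:27125897-27147515) summed to 18.9, 6.73, 12.9 and 4.86 CPM in control 1, control 2, KO 1 and KO 2, and the 16 of the downstream cluster (chr6:27807444-27893843) to 8.003, 4.14, 6.07 and 3.66. On chromosome 1 the 12 HIST2H genes summed to 5.22, 3.88, 4.69 and 3.54 CPM and the 3 HIST3H genes to 10.6, 6.05, 7.09 and 3.83. KO 1 lay above control 2 in each of these 5 loci. HIST4H4 on chromosome 12 was the exception, with KO 1 below both controls.

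Many H2A and H2B genes stand head to head and share the stretch between their starts. In all, 12 pairs of histone genes on opposite strands started within 219 to 357 bases of each other. HIST1H2BO is counted with both HIST1H2AM and the H3 gene HIST1H3J, whose annotated models overlap. Each other pair joins an H2A and an H2B gene. For HIST1H2BC and HIST1H2AC the stretch between the RefSeq starts (GRCh38.p14, chr6:26123927-26124171, - strand, read towards HIST1H2BC) is shown, with ATTTGCAT, CCAAT and TATAAA on either strand in capitals, because HIST1H2AC had the widest range in CPM:
HIST1H2BC and HIST1H2AC: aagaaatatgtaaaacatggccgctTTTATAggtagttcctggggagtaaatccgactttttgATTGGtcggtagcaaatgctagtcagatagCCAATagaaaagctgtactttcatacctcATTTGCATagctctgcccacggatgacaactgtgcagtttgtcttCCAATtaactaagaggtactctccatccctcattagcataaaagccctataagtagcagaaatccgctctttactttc

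Some genes that share such a stretch differed widely in level and others did not, by ratios of mean levels that depend on the annotated lengths. The pairs with the largest ratios are given first. HIST1H2BC had 48, 13, 35 and 21 reads, where HIST1H2AC had 1081, 202, 237 and 154, a 6.73-fold difference per kb. Their log2 fold changes were 0.15 and -1.40, and the difference between them was not tested. HIST3H2A and HIST3H2BB differed 36.0-fold per kb, with 30, 13, 15 and 6 reads for HIST3H2BB. HIST1H2BK and HIST1H2AH differed 21.7-fold per kb. In HIST1H2BL and HIST1H2AI the levels were close, at a ratio of 1.23. The remaining pairs with reads had ratios from 1.17 (HIST1H2AD and HIST1H2BF) to 3.53 (HIST1H3J and HIST1H2BO). In the test with all libraries no tested gene of the 12 pairs was called, where 0.0263% of all genes were. HIST1H2AA, HIST1H2BA, HIST1H2AD, HIST1H2BM and HIST1H3J were not tested.

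Of the 71 genes, 61 matched a RefSeq promoter (250 bases before to 50 after the start). The octamer ATTTGCAT, the core of the site bound by POU2F1, was found on either strand in 14 of 18 H2B and 11 of 14 H2A promoters, and in 0 of 6 H1, 10 H3 and 13 H4 promoters. Among all 35116 promoters 1.77% held it. H2A and H2B promoters of a pair overlap, so that 1 octamer is counted for both genes. CCAAT was in 51 of the 61, against 34.6% of all promoters, with the H4 class at 3 of 13 and each promoter of the other classes holding it. TATAAA was in 40 of the 61, against 11.5% of all promoters. Matches are of letters only, and a base can belong to more than 1 motif.

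The genes that make and process histone RNA gave no call. Of 29 genes tested in the list of histone RNA processing and transcription, 0 were called and 0 had an unadjusted p under 0.05 (4.06% of all genes had), with a median log2 fold change of 0.01 beside 0.029 for all genes. Both KO libraries were above both controls for 7 of the 29 and below for 3, against 15.8% and 16.3% of all genes. SLBP, which binds the stem-loop, had 2206 and 1423 reads in controls and 1067 and 1384 in KO, or 58.5, 40.1, 38.8 and 40.5 CPM. Control 1 was above the other 3 libraries, which were close. The log2 fold change was -0.31 ± 0.30 (SE), which was -0.0054 without control 1. NPAT, a coactivator of histone gene transcription, stood at 25.6 and 34.9 CPM in controls and 25.3 and 23.0 in KO, with both KO libraries below both controls. Its log2 fold change was -0.32 ± 0.31 (SE), and -0.084 without control 2. LSM10, a protein of the U7 particle, stood at 34.8 and 26.7 CPM in controls and 38.2 and 37.7 in KO, with a log2 fold change of 0.30 ± 0.29 (SE) that was 0.12 without control 2. LSM11, another protein of that particle, stood at 9.06 and 9.74 CPM in controls and 10.2 and 19.3 in KO. Its log2 fold change was 0.65 ± 0.42 (SE), but 0.12 without KO 2, so most of it rested on that library. The U7 RNA gene RNU7-1 had 0 reads in all libraries. Of 23 tested histone chaperones and assembly factors 0 were called, and their median log2 fold change was 0.09.

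The genes listed as replication-independent histone genes, most of which are known for polyadenylated RNA made also outside S phase, were far more abundant in these libraries. Their summed level was 2402 and 2071 CPM in controls and 2361 and 2672 in KO, which was 22.4, 43.7, 33.2 and 74.8 times that of the 71 genes in control 1, control 2, KO 1 and KO 2. The list includes H2AFX, with the stem-loop motif above, and CENPA, the centromere variant of H3, known to be made mainly in G2. Of 20 listed genes 11 were tested and 0 were called, with a median log2 fold change of 0.13. H2AFZ, an H2A variant gene, stood at 685, 435, 718 and 631 CPM, and H3F3B, an H3 variant gene, at 591, 592, 534 and 689 CPM. The groups overlapped in both. H3F3A, its sister gene, stood at 297 and 249 CPM in controls against 327 and 365 in KO, with a log2 fold change of 0.34 ± 0.26 (SE). The log2 fold changes of the remaining named genes were 0.13 for H2AFX, -0.02 for the linker histone gene H1F0, 0.23 for H1FX and -0.06 for H2AFJ, none of them called.

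The lists that mark the cell cycle were read beside these values, because replication-dependent histone RNA is made in S phase. The S phase genes summed to 4991 and 3610 CPM in controls 1 and 2, and to 4929 and 3772 CPM in KO 1 and 2. Control 1 and KO 1 were thus above control 2 and KO 2, as they were for the histone genes, but over a narrower range. This was not particular to the S phase genes. In control 1, control 2, KO 1 and KO 2 the histone chaperones summed to 6791, 5612, 6588 and 5755 CPM. The histone RNA processing and transcription genes summed to 2229, 1926, 2361 and 2018 CPM. Of 28 S phase genes 0 were called, with a median log2 fold change of 0.02. PCNA, the sliding clamp of DNA replication, had a log2 fold change of -0.26 ± 0.30 (SE), which was -0.013 without control 1 and -0.027 without KO 2. The G2 and mitosis genes summed to 2938 and 2993 CPM in controls and 3007 and 4524 in KO, so that KO 2 was the highest where it was the lowest for the histone genes. Their median log2 fold change was 0.34, beside 0.029 for all genes. Both KO libraries were above both controls for 6 of the 18 and below for 0, against 15.8% and 16.3% of all genes. Of 18 such genes 0 were called and 1, CDC20, had an unadjusted p under 0.05 (log2 fold change 0.68, unadjusted p 0.0446, adjusted p 0.997 by edgeR's quasi-likelihood test). The part of the cell cycle in the order of the histone libraries was not tested.

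Other RNAs that mostly lack poly(A) were read as a measure of how much such RNA each library took in. Of 25 listed genes found in the files, 12 were at 0 in all libraries and 3 were tested, with 0 called. Together they summed to 8.77 and 23.9 CPM in controls 1 and 2, and to 20.5 and 15.2 CPM in KO 1 and 2, and nearly all of it was RN7SL2, an RNA of the signal recognition particle, with 286, 800, 533 and 486 reads. RN7SL2 has near-identical copies such as RN7SL1, listed at 0 here, so its own level is uncertain. Control 1, the highest library for histone RNA, was the lowest for RN7SL2 and so for this sum. The other tested RNAs of the list differed in this. In control 1, control 2, KO 1 and KO 2, VTRNA1-3 had 14, 10, 5 and 8 reads, with control 1 the highest in CPM. SCARNA10 had 4, 11, 10 and 10 reads, with control 1 the lowest. The part of poly(A) selection in the histone values was not tested.

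**Figure D5:**
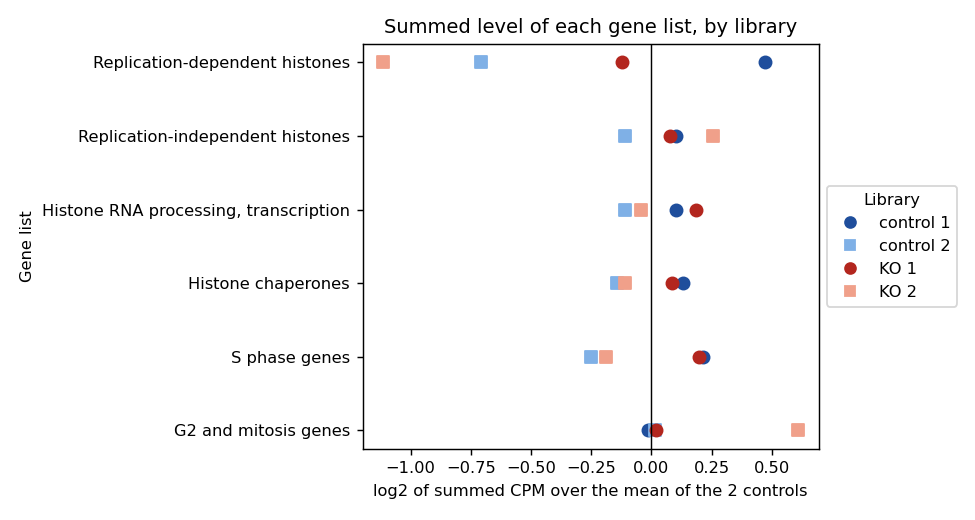
Summed level of 6 gene lists in each library, as log2 over the mean of the 2 controls. Points are single libraries. The replication-dependent histone genes spread from -1.11 in KO 2 to 0.47 in control 1, and the S phase genes from -0.25 in control 2 to 0.21 in control 1.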

How the data were processed

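RNA of 2 control and 2 SLC35F2 KO H9 libraries was measured, and groups were taken from sample titles. Per the labels' protocols, a stranded mRNA kit was used on Trizol-extracted RNA. The tools named in the submitters' processing notes are STAR 2.6.0a, HTSeq 0.11.0, cutadapt 1.8.1 and FastQC 0.11.7, with GRCh38. Which annotation and strand option the authors counted with is not given in the sources used here. Reads of overlapping genes may therefore be mixed or lost. The deposited values are whole read counts per gene with unequal totals, which do not carry the quantile normalisation that the labels' protocols name. Alignments assigned to no gene (14.4 to 20.3%) were left out.

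Identifiers were matched without version to GENCODE 29 (56753 of 60483, 93.8%), and 19 histone pseudogene symbols were left out. Genes were filtered with filterByExpr (minimum count 10), scaled by TMM and compared by the robust quasi-likelihood F test of edgeR 4.0.16 (two-sided, Benjamini-Hochberg over 19027 genes, threshold 0.05, common dispersion 0.132, R 4.3.3). Replicates differed beyond sampling noise (chi-square per degree of freedom 61.5 for controls and 141 for KO). DESeq2 1.42.0, limma 3.58.1 (voom), other scalings and filters, left-out libraries and a replicate block were alternatives. Named genes were the 2 most abundant of each class, those called or with non-overlapping groups, those at 0, near-identical pairs and set regulators. Other genes named with values (HIST1H1A, HIST1H1D, HIST1H2BJ, HIST2H2BE, HIST1H2BD, HIST1H4H, HIST1H2AG and the divergent pairs) were picked once their values were known. The members and lists were chosen with earlier results of these data known. Sequences came from GENCODE 29 transcripts and RefSeq promoters (GRCh38.p14).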

Additional observations from a re-analysis of the deposited data

How the results depend on the processing

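The replication-dependent histone genes called were 0 of those tested under other scalings, tools, filters, the replicate block and the 0.01 threshold, and 0 to 4 when a library was left out (4 without KO 1). The genes called over all genes were 5, 5 with RLE factors and with a filter of 10 reads in 2 libraries, 0 with library size only, upper-quartile factors, limma-voom or the 0.01 threshold, 52 with DESeq2, 1 with the legacy fit, 8 with no filter and 3 to 1096 when a library was left out. With library size alone, all genes had a median of -0.097 in place of 0.029. Leaving out a library moved the log2 ratio of the summed level between -1.11 and 0.17 for all 71 genes, -0.95 and -0.0013 for H1, -1.53 and 0.10 for H2A, -0.66 and 0.48 for H2B, -1.46 and 0.23 for H3, and -1.49 and -0.09 for H4, and the median log2 fold change between -1.20 and 0.25. Positive values came without control 1 (all 71, H2A, H2B, H3 and the median) and without KO 2 (H2B at 0.12, H3 at 0.22 and the median at 0.05). Without the most abundant gene of each class the ratio was 0.37 for H1, -0.48 for H2A and -0.33 for H2B, and without extended models -0.54 for H2A, -0.64 for H2B and -0.15 for H4. At 1 read in place of 10, the genes detected were 60, 57, 60 and 53. The sum over genes with at most 10% shared words was added after seeing the data.

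Of 325 alternative values for 25 named genes, 297 kept their direction and side of the threshold, 7 passed the threshold (4 for SLC35F2, and HIST1H2AC, HIST1H3G and HIST4H4 without KO 1) and 21 changed sign. The 14 genes that changed sign when a library was left out had log2 fold changes of -1.42 to 0.033 for HIST1H1C, -0.23 to 2.05 for HIST1H1E, -2.13 to 0.21 for HIST1H2AC, -0.068 to 0.77 for HIST1H2BH, -1.18 to 0.21 for HIST1H2BK, -2.82 to 0.38 for HIST1H3G and -0.70 to 0.48 for HIST1H3H. The others ranged from -1.40 to 0.39 for HIST1H4I, -0.024 to 0.64 for H2AFZ, -0.14 to 0.48 for H2AFX, -0.14 to 0.23 for H3F3B, -0.76 to 0.48 for H1F0, -0.31 to 0.64 for H1FX and -0.32 to 0.22 for H2AFJ. The sign changed without control 1 for HIST1H1E, HIST1H2AC, HIST1H2BK, HIST1H3G, HIST1H3H, HIST1H4I and H2AFJ, and without KO 2 for HIST1H1C, HIST1H3G, HIST1H4I, H3F3B, H1FX and H2AFJ. It changed without control 2 for HIST1H2BH, H2AFZ, H2AFX and H1F0, and without KO 1 for H2AFX (-0.12) and H1F0. H3F3B was -0.084 with library size only and -0.036 with upper-quartile factors. Among genes that kept their sign, left-out libraries gave -2.81 to -0.66 for HIST4H4, -1.90 to -0.76 for HIST1H2BL, -1.08 to -0.16 for HIST3H2A, -0.56 to -0.0054 for SLBP, -0.53 to -0.013 for PCNA, 0.12 to 1.05 for LSM11 and -1.92 to -1.31 for SLC35F2. The cause was not tested.

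With the replicate number as a block, 76 genes and 0 histone genes were called, and HIST1H2AC and HIST4H4 had unadjusted p-values of 0.0131 and 0.0118 (adjusted p 0.412 and 0.404, edgeR's quasi-likelihood test). No label says that the number marks a shared day or culture, and the deviations of the same-numbered libraries correlated at r = 0.366 over 19027 genes. Too few reads for a test fell on 37 of the 71 genes, and the part of depth in this was not tested.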

Other observations

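Besides the protein-coding genes, 19 histone symbols are annotated as pseudogenes. HIST2H2BC, a transcribed unprocessed pseudogene (chr1:149844498-149850937, - strand) whose transcript holds the stem-loop motif, had 196 and 114 reads in controls and 150 and 54 in KO. KO 1 lay between the controls, and the log2 fold change was -0.29 (95% interval -1.72 to 1.14, unadjusted p 0.657, adjusted p 0.997 by edgeR's quasi-likelihood test). It was the only pseudogene locus that could be tested. HIST1H2APS4 had 12, 2, 8 and 5 reads in control 1, control 2, KO 1 and KO 2. HIST2H2BD had 2, 8, 10 and 1 reads in the same order, and HIST1H1PS1 had 10, 0, 2 and 1. No read fell on 6 of the 19 in any library, and 14 had fewer than 10 reads in all.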
